A study of Mus musculus with 19 samples.

Results

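Fat from non-obese diabetic (NOD) mice treated with alpha1 anti-trypsin (AAT) was compared with fat from normal NOD mice, to ask which transcripts still differed from normal fat after treatment. The comparison rests on 4 arrays of 19, picked from what the submitters wrote of each sample: the 2 AAT treated fat arrays (AAT 1 and AAT 2) and the 2 normal fat arrays (NOR 1 and NOR 2). All mice were female and of the strain written NOD (NOD/LtJx), and by the study's methods the treated mice had new onset diabetes, whereas NOR mice were normoglycemic. The other fat arrays were 2 from diabetic mice (DIA) and 3 from mice given Power Mix (PM), a regimen of IL2.Ig, an antagonist IL15.Ig and rapamycin, and the remaining 10 were of pancreatic lymph nodes (PLNs). The study's methods name epididymal white adipose tissue as the fat dissected for its insulin signalling experiments and RNA, without tying that depot to these arrays, whose mice are labelled female. The sources used here do not give the age and blood glucose of the mice behind each array or the time from the last AAT dose to collection. The labels do not tie the arrays to separate mice. Spread between arrays may therefore be technical. GEO's protocol text also describes streptozotocin given to mice made euglycemic by anti-TNF, without tying it to any of these fat arrays.

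AAT is a circulating inhibitor of serine proteases, best known for blocking neutrophil elastase, and it also dampens inflammatory signalling. NOD mice develop autoimmune diabetes, and white fat takes up glucose and builds triglyceride under insulin. Its lipogenic and fasting genes respond to insulin. The study's methods describe individualized insulin therapy without tying it to these arrays. The insulin state of the DIA and AAT mice is therefore not known here. Whole fat holds adipocytes together with fibroblasts, vessel walls, macrophages and lymphoid cells. In such bulk tissue fewer cells of a type and less RNA per cell cannot be told apart.

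Adipocyte genes defined all 4 samples. The 18 measured members of the adipocyte identity list had a median rank at the 98.8th and 99.1st percentile of all transcripts in NOR 1 and NOR 2, and at the 99.1st and 98.1st in AAT 1 and AAT 2. Array quality differed with the groups by the actin control, and less clearly by the Gapdh control. The 3′ to 5′ signal ratio of the actin control probe sets, which goes up as RNA is degraded or shortened, was 3.63 and 4.30 in NOR, 9.08 and 5.87 in AAT, 15.2 and 15.5 in DIA and 3.35 to 6.32 in PM. The NOR and AAT ranges of this actin ratio did not overlap. The same ratio of the Gapdh control was 0.91 and 0.95 in NOR and 2.31 and 0.79 in AAT 1 and AAT 2, so by it NOR and AAT overlapped. It was 2.46 and 4.63 in DIA and 0.90 to 1.08 in PM. Replicates also differed among themselves. NOR 1 had its highest correlation with any other fat array at 0.812, against 0.841 to 0.887 for the highest correlations of NOR 2 and the AAT arrays. The 24 blood endothelial genes had a mean centred log2 level of -2.01 in NOR 1 and 1.36 in NOR 2, and of 1.35 in AAT 1 and -0.93 in AAT 2, so this vessel list split both groups from within.

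No transcript was called different between AAT and NOR fat. Of 45037 transcripts none had an adjusted p under 0.05 in limma (0% called), and the smallest adjusted p was 0.908. At an unadjusted p under 0.05 there were 2283 transcripts, where 2252 would fall by chance alone. A rank product test put 8129 past the same fold and p limits. Its null took the pairwise differences between AAT and NOR arrays as independent although they share arrays. Its p-values can therefore be too small, and that count is not a measure of real differences. The median absolute log2 difference was 0.76 between the NOR arrays and 0.80 between the AAT arrays among single arrays, and 0.52 between the group means, which average 2 arrays each. For a single value an exact permutation test of 2 arrays against 2 cannot go below p = 0.333. The differences between AAT and NOR fat that follow are therefore descriptions, none of which passed a test corrected for all transcripts. A transcript is said to be past the thresholds when it differed by more than 2-fold with an unadjusted limma p of at most 0.05, the limits named in the study's methods. By that rule 2053 transcripts differed (4.56% of those measured), 1005 higher (2.23%) and 1048 lower (2.33%) in AAT. Counted as 18193 genes, each by its brightest probe set, 835 were past the thresholds (4.59%), 440 higher (2.42%) and 395 lower (2.17%). The median log2 difference over all genes was -0.09.

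Smooth muscle genes stood furthest from normal fat. These genes build the contractile apparatus of vessel walls and of hollow organs: actins (Acta2, Actg2), myosin heavy and light chains (Myh11, Myl9), the kinase that switches myosin on (Mylk), the thin filament proteins Tpm2, Tagln, Cnn1, Smtn and Lmod1, the intermediate filament desmin (Des) and the actin-bundling protein Synpo2. Of the 15 members of the smooth muscle and pericyte list, 12 were past the thresholds and higher in AAT (80%, against 2.42% of all genes). None was lower, and the median log2 difference was 2.22. Lists and members were chosen with earlier results of these data known, so this share is a description and not a test. Genes of the same cell type can also move together and do not count as separate replicates. Many contractile genes are driven by serum response factor through the CArG box, which reads CC, then 6 letters A or T, then GG. Promoter windows from 250 bases before to 50 after the start (RefSeq, GRCm38.p6, the C57BL/6J reference and not the NOD genome) were found for 9 of these 12 genes and read on both strands. The strict motif occurred in 1 of the 9 (11.1%), against 1.63% of all 32851 windows, and a form that allows 1 C or G among the 6 letters in 2 of the 9 (22.2%), against 9.98% of all windows. A match of letters is not evidence of binding. The 250 bases before the start are shown for those 2 genes, 5′ to 3′ on the gene's strand, with the boxes in capitals:

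Acta2 (chr19:34255374-34255623, minus strand): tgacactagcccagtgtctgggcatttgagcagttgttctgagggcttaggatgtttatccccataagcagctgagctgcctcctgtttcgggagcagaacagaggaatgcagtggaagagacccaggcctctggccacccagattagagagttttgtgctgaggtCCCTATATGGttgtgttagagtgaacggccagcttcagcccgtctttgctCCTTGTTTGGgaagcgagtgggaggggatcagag

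Myl9 (chr2:156775214-156775463, plus strand): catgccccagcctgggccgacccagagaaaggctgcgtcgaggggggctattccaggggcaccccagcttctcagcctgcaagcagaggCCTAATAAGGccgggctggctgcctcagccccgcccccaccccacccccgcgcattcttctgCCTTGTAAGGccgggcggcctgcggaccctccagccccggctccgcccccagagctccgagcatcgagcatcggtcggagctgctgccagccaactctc

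The Acta2 window holds a pair of boxes with 1 C or G inside, and the Myl9 window holds 1 strict box followed by 1 of the looser form. Acta2, which encodes smooth muscle actin, had signals of 3823 and 14637 in NOR 1 and NOR 2 and of 25799 and 36470 in AAT 1 and AAT 2. Both AAT arrays were above both NOR arrays, and NOR 1 was the lowest of the 4. The log2 difference was 2.04 (SE 0.60), or 4.10-fold, while DIA arrays read 8066 and 5911 and PM arrays 2486 to 6840. Myl9, the regulatory light chain of smooth muscle myosin, read 1004 and 3315 in NOR and 6912 and 10509 in AAT, a log2 difference of 2.22 (SE 0.53). Again no AAT value fell to the level of a NOR value. Des read 834 and 1423 in NOR and 2727 and 4151 in AAT (log2 1.63, SE 0.36), and had the smallest unadjusted limma p of the list, 0.00083, with an adjusted p of 0.908. Mylk went from 1839 and 4694 in NOR to 9483 and 18518 in AAT (log2 2.17, SE 0.54), and Tpm2 from 2569 and 9258 to 20794 and 30034 (log2 2.36, SE 0.61). The group means were 4.51-fold and 5.12-fold apart, and in neither gene did the groups overlap.

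All 15 members are named here, the rest after their values were seen. Myh11, the smooth muscle myosin heavy chain, had signals of 346 and 3045 in NOR and 6346 and 11590 in AAT. In fold terms its 2 NOR arrays differed from each other by more than AAT 1 differed from NOR 2, and the log2 difference of 3.06 had an SE of 0.90. Tagln (log2 2.56), Actg2 (2.22), Smtn (2.29), Synpo2 (2.14), Lmod1 (3.13) and Cnn1 (3.44) were the other members past the thresholds. The 3 members that were not past the thresholds are those that mark pericytes or mural cells more widely: Rgs5 (log2 0.99, SE 0.85), Cspg4 (0.04, SE 0.44) and Notch3 (0.03, SE 0.43). In each of these the NOR and AAT arrays overlapped. For 12 of the 15 genes both AAT arrays were above all 7 other fat arrays, which held for 2.86% of all genes, and for none were both below them (2.69% of all genes). The DIA arrays, compared with the same NOR arrays, had a list median of -0.28, and the PM arrays one of -0.86. Directly compared with PM fat, AAT fat had 12 of 15 members higher past the same limits (2.34% of all genes). None was lower (2.40%), and the list median was 3.01. This difference does not use the NOR signals, but its SE and p come from the fit that includes the NOR arrays. It also reuses the AAT arrays whose values put members past the thresholds against NOR, so it is not an independent check.

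**Figure D1:**
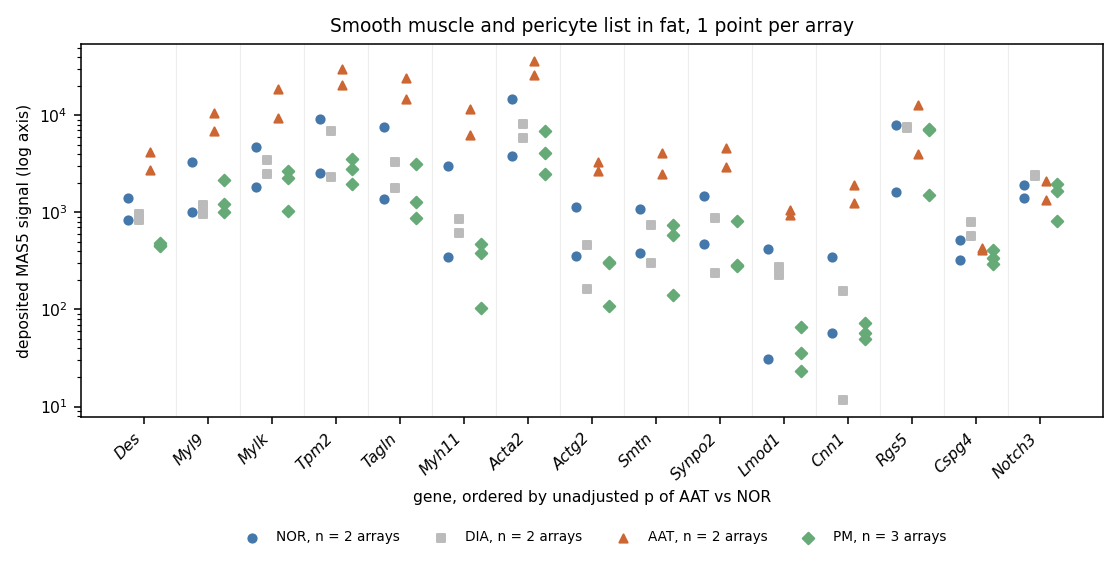
Deposited signal (log axis) of the 15 smooth muscle and pericyte genes in each of the 9 fat arrays, grouped by NOR, DIA, AAT and PM. For the first 12 genes both AAT points lie above every other point of the gene, and for Rgs5, Cspg4 and Notch3 they lie among the others.

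The smooth muscle result leaned on NOR 1, and values of other tissue markers stood beside it. Without NOR 1 the members past the thresholds went from 12 to 4 and the list median from 2.22 to 1.33, while without NOR 2 there were 13 with a median of 3.05 and without AAT 2 there were 9. With the actin ratio as a covariate 4 members were higher and 2 lower, with a median of 1.54. The list level, the mean over members of log2 signal centred on the 9 fat arrays, was -0.99 and 0.78 in NOR and 1.76 and 2.07 in AAT. The list of mesothelial, ovary and uterus genes had 3 of 19 members higher past the thresholds and none lower, with a median of 0.74. It had 8 members higher without AAT 1, 1 higher with a median of -0.34 without AAT 2, 1 higher without NOR 2, and 8 higher and 1 lower with the actin ratio as covariate. Its level was 0.33 and -0.41 in NOR and -0.13 and 1.07 in AAT, so its groups overlapped. Pgr, the progesterone receptor, read 464 and 985 in NOR and 2180 and 1822 in AAT (log2 1.56, SE 0.48). Wt1, a transcription factor of mesothelium and gonad, read 761 and 603 in NOR and 1115 and 2193 in AAT (log2 1.21, SE 0.43). Upk1b was the other (log2 1.39, SE 0.59, by its brightest probe set), and 13 of the 19 overlapped between groups. Over all genes 13.9% had both AAT arrays above both NOR arrays and 17.7% both below, so most genes overlapped. The part of such tissue in the smooth muscle result was not tested.

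Matrix genes followed the same direction with smaller differences. Of 36 collagen and matrix genes 4 were past the thresholds and higher and none lower, with a median log2 difference of 0.67. Here and for the lists below, 2.42% of all genes were higher past the thresholds and 2.17% lower. In 18 of the 36 both AAT arrays were above both NOR arrays (13.9% of all genes), and in none were both below (17.7%). Postn, a matricellular protein made by activated fibroblasts, read 1709 and 6238 in NOR and 11811 and 12891 in AAT. AAT arrays were close together and above both NOR arrays, which differed from each other more than 3-fold. The log2 difference was 1.92 (SE 0.73). Mmp14, a membrane-bound collagenase, was 859 and 954 in NOR and 2383 and 2688 in AAT (log2 1.48, SE 0.48), with tight pairs in both groups. Plod2, which hydroxylates collagen lysines, was 317 and 522 in NOR and 983 and 1224 in AAT (log2 1.43, SE 0.51). The small proteoglycan Lum, named after its value was seen, was the other member past the thresholds (log2 1.08, SE 0.43). Of the fibrillar collagens, named after their values were seen, Col1a1 had a log2 difference of 0.10 (SE 0.51) and Col3a1 one of 0.51 (SE 0.63), both with overlapping groups, while Col1a2 had one of 0.72 (SE 0.52) without overlap. Against PM fat the matrix list had a median log2 difference of 1.01. Of its 36 members 14 were higher past the limits (2.34% of all genes) and none lower (2.40%). The count of 4 was 2 without NOR 1 and 2 without AAT 2. With the actin ratio as a covariate the AAT against NOR median was -0.12, with 4 members higher and 8 lower. By gene the log2 difference was then 0.11 for Postn, 0.82 for Plod2, 1.32 for Lum and 2.055 for Mmp14. The fibroblast and preadipocyte list, which shares several of these genes, had 1 of 15 members past the thresholds (Lum) and a median of 0.51.

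TGF-beta drives matrix production and smooth muscle genes, and BMPs are its relatives. Of 28 TGF-beta pathway genes 3 were past the thresholds and higher (Tgfbi, Id2 and Bmp4), none lower, and the median was 0.65. Tgfbi, a secreted matrix protein induced by TGF-beta, had the smallest unadjusted limma p of all 24 genes named by rank, 3.82e-05, with an adjusted p of 0.908. Its signals were 1472 and 1454 in NOR and 6292 and 4958 in AAT. Both pairs were tight, and the log2 difference was 1.93 (SE 0.30), or 3.82-fold. DIA arrays read 5692 and 7295, as high as AAT, while PM arrays read 1414 to 1951, and the 4 Tgfbi probe sets had AAT against NOR log2 differences of 0.81 to 1.93. Id2, a BMP and TGF-beta responsive inhibitor of helix-loop-helix factors, was 436 and 550 in NOR and 1068 and 3264 in AAT (log2 1.93, SE 0.49). Bmp4 was 354 and 708 in NOR and 966 and 1073 in AAT (log2 1.02, SE 0.41). The list count depended on the NOR arrays, with 2 higher without NOR 1 and 11 higher and 1 lower without NOR 2, and with the actin ratio as covariate it was 3 higher and 3 lower with a median of -0.07.

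Macrophage genes were the next list by share of members past the thresholds. Resident macrophages of fat clear dead adipocytes and carry complement C1q, lysosomal proteases and scavenger receptors. Of 27 measured macrophage and monocyte genes, 10 were past the thresholds and higher (37%) and none lower, with a median of 0.88. C1qc, a chain of complement C1q, was 112 and 334 in NOR and 1241 and 991 in AAT (log2 2.52, SE 0.60). DIA arrays read 509 and 1725 and PM arrays 827 to 898, so that the NOR arrays were the low ones. Ctss, the lysosomal protease cathepsin S, was 938 and 816 in NOR and 2367 and 2114 in AAT (log2 1.35, SE 0.38). Ms4a7, a macrophage membrane protein, was 77.5 and 200.3 in NOR and 434 and 464 in AAT (log2 1.85, SE 0.53). Laptm5, a lysosomal protein of blood cells, was 872 and 1126 in NOR and 2596 and 1619 in AAT (log2 1.05, SE 0.33), and was 5178 and 5500 in DIA. In all 4 genes the AAT arrays were above the NOR arrays, as follows largely from choosing genes past the thresholds. Over the list 10 of 27 members overlapped. In 15 both AAT arrays were above both NOR arrays (13.9% of all genes), and in 2 both were below (17.7%). Mpeg1, Clec10a, C1qb, Lgals3, Ccr2 and Mrc1, named after their values were seen, made up the 10, with log2 differences of 1.03 to 1.99. The general macrophage markers, also named afterwards, overlapped between the groups: Adgre1, which encodes F4/80, was 899 and 588 in NOR and 541 and 780 in AAT, Cd68 had a log2 difference of 0.21 (SE 0.59) and Cd14 one of 0.12 (SE 0.34). The list level was -0.65 and -0.33 in NOR, 0.14 and 0.03 in AAT, 0.14 and 0.56 in DIA and -0.05 to 0.13 in PM. Every one of the other 7 fat arrays was above both NOR arrays on this level. Against PM fat the list had 1 member higher (2.34% of all genes), 1 lower (2.40%) and a median of 0.08. The count of 10 was 4 without NOR 1, 5 without AAT 1, 5 with the actin ratio as covariate and 5 with a common prior variance.

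Other immune lists had fewer members past the thresholds, most of them higher in AAT. MHC class II presents peptides to CD4+ T cells, and NOD mice express only the I-A molecule of this class on their cells. Of 12 class II presentation genes 3 were higher and none lower, with a median of 0.46: Ctss as above, the class II chain H2-Aa (1451 and 2110 in NOR, 3018 and 4082 in AAT, log2 1.00, SE 0.41) and the invariant chain Cd74 (1352 and 1568 in NOR, 4332 and 2389 in AAT, log2 1.14, SE 0.52). Neither gene overlapped between groups, though both lay near the limits. Over the list 6 of 12 members had both AAT arrays above both NOR arrays (13.9% of all genes), and 2 had both below (17.7%). H2-Aa was also above NOR in PM, at 3958 to 4988, and without NOR 1 the list had 1 member past the thresholds. Of 31 interferon-stimulated genes 4 were higher (Oas2, Gbp3, Tap1 and Oasl2) and none lower, with a median of 0.28, and without AAT 2 there were 1 higher and 2 lower, without NOR 1 there were 2 higher. Oas2, an antiviral RNA sensor, was 208 and 95.7 in NOR and 582 and 606 in AAT (log2 2.08, SE 0.53). Of 25 chemokines 3 were higher and 1 lower, with a median of 0.00, and with the actin ratio as covariate 7 were higher and none lower. Ccl5, which draws T cells, was 50.1 and 238.9 in NOR and 579 and 1444 in AAT (log2 3.06, SE 0.75), Cxcl12, a stromal chemokine, 1549 and 1807 against 3223 and 3643 (log2 1.03, SE 0.28), and Ccl9 had a log2 difference of 1.24 (SE 0.37). Ccl3, a macrophage inflammatory protein, lay below NOR at 6.7 and 47.2 in AAT against 148 and 89.1, signals near the bottom of the array range.

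TNF acts through receptors that free NF-kB from its inhibitors, and lymphotoxin beta feeds the pathway that processes Nfkb2. Of 31 measured genes of the TNF and NF-kB pathway 3 were past the thresholds and higher and none lower, with a median of 0.05 against -0.09 for all genes, and without AAT 2 there was 1. Ltb, a subunit of the membrane lymphotoxin of lymphocytes, was 13.7 and 41.6 in NOR and 277 and 322 in AAT (log2 3.64, SE 0.86). The NOR values were near the bottom of the array range. Nfkb2 was 71.2 and 325.5 in NOR and 438 and 856 in AAT (log2 2.01, SE 0.65), and Traf1, an adaptor of TNF receptors that NF-kB induces, was 125.5 and 42.5 in NOR and 203 and 238 in AAT (log2 1.59, SE 0.70). Nfkbia, the brightest member of the list and the inhibitor IkB-alpha, was 13432 and 12965 in NOR and 20287 and 14132 in AAT (log2 0.36, SE 0.45). The T and NK cell list had 1 of 25 members past the thresholds, Gzma, lower in AAT, and a median of 0.09, and the B cell list had none of 16 with a median of -0.57.

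Ighm had the largest log2 difference of the 24 genes named by rank. Plasma cells secrete antibody and assemble IgM and IgA polymers around the J chain. Ighm, the IgM heavy chain, was 153 and 315 in NOR and 19419 and 3925 in AAT. Both AAT arrays were more than 10-fold above both NOR arrays, and the log2 difference was 5.31 (SE 0.90), with an adjusted p of 0.908. DIA arrays read 301 and 1738 and PM arrays 1064 to 3511. Other probe sets of Ighm differed, with log2 differences from -2.28 to 4.95, so that value is that of its probe set alone. The brightest Ighm probe set, by which the gene is counted, gave 1.75 (SE 0.98) and was not past the thresholds. Jchain, which joins these polymers, was 802 and 419 in NOR and 9847 and 5310 in AAT, a log2 difference of 3.64 (SE 0.77), or 12.5-fold. Of the 12 measured members of the plasma cell and immunoglobulin list 3 were past the thresholds and higher (25%) and none lower. These were Jchain, Sdc1, the plasma cell surface proteoglycan that epithelia also carry (193 and 343 in NOR, 915 and 1431 in AAT, log2 2.15, SE 0.46), and Mzb1, a chaperone of antibody secretion (140 and 325 in NOR, 544 and 1032 in AAT, log2 1.81, SE 0.51). The list median was 0.64. Igha, the IgA heavy chain, had a log2 difference of 3.10 with an SE of 1.48, and Xbp1, a secretory cell factor that adipocytes also use, overlapped between groups (log2 -0.39, SE 0.34).

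Some glucocorticoid-induced genes were higher in AAT fat. These genes are switched on by cortisol or corticosterone through the glucocorticoid receptor, and several are also set by insulin and fasting. Of 19 such genes 4 were past the thresholds and higher (21.1%) and none lower, with a median of 0.55. Ddit4, an inhibitor of mTOR that stress and glucocorticoids induce, was 2128 and 1445 in NOR and 9347 and 5523 in AAT (log2 2.03, SE 0.42). It read 1663 and 1337 in DIA, at the NOR level, and 5243 to 11603 in PM. Tsc22d3, which encodes the glucocorticoid-induced leucine zipper, was 4085 and 2483 in NOR and 10405 and 10493 in AAT (log2 1.71, SE 0.51). Zbtb16, a zinc finger factor, was 1382 and 1388 in NOR and 7789 and 2880 in AAT by its brightest probe set (log2 1.77, SE 0.58), and its 3 probe sets ran from 0.49 to 4.47 on the log2 scale. Klf9, a receptor target, was 12058 and 12724 in NOR and 26283 and 25722 in AAT (log2 1.07, SE 0.36), tight in both groups. None of the 4 overlapped between NOR and AAT, as follows largely from choosing genes past the thresholds. Over the list 11 of 19 members overlapped. In 8 both AAT arrays were above both NOR arrays (13.9% of all genes), and in 0 both were below (17.7%). Fkbp5 was 2915 and 2099 in NOR and 4112 and 3185 in AAT (log2 0.55, SE 0.39), and Per1 had a log2 difference of 0.10 (SE 0.36), both named after their values were seen. The AAT against PM median of the list was -0.32, and the PM against NOR median 0.71. With the actin ratio as covariate 2 members were higher and 4 lower, with a median of 0.22. By gene the log2 difference was then 0.22 for Zbtb16, 0.82 for Klf9, 1.15 for Ddit4 and 1.46 for Tsc22d3.

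**Figure D2:**
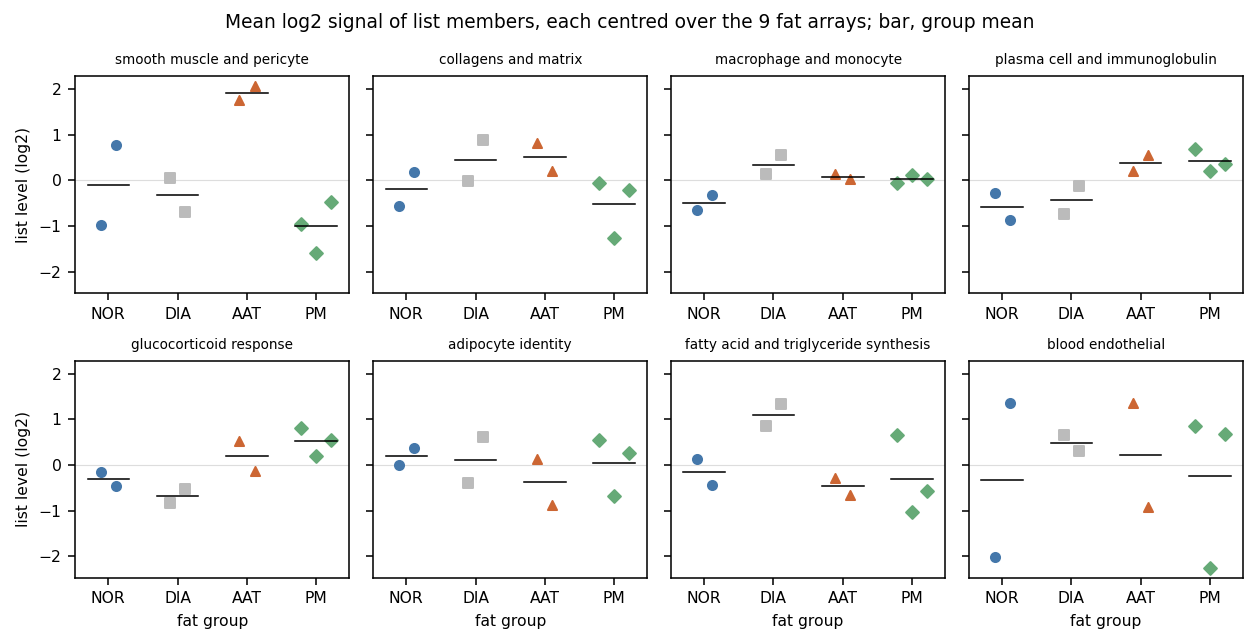
Level of 8 gene lists in each of the 9 fat arrays, as the mean over members of log2 signal centred on the 9 arrays, with a bar at each group mean. On the smooth muscle list both AAT arrays lie above all others, on the macrophage list both NOR arrays lie below all others, and the blood endothelial list splits NOR, AAT and PM from within.

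Each of the 24 genes ranked by unadjusted p had no overlap between AAT and NOR, by the rule that chose them. Among the 12 higher ones not yet described, Ogn, a small proteoglycan of connective tissue, was 3401 and 2960 in NOR and 10769 and 10052 in AAT (log2 1.71, SE 0.33). A second Ogn probe set had a log2 difference of 0.05 (SE 0.37). Antxr1, a collagen-binding membrane receptor, was 681 and 1021 in NOR and 2535 and 3862 in AAT (log2 1.91, SE 0.40), and read 531 to 821 in PM. Cdon, a co-receptor of hedgehog signalling, was 665 and 545 in NOR and 1694 and 1877 in AAT (log2 1.57, SE 0.32), and 1931 and 1449 in DIA. Dimmer second probe sets of Antxr1 and Cdon went the other way, at -0.40 and -0.69. Upk1b, a uroplakin of urothelium and mesothelium, was 213 and 209 in NOR and 727 and 1296 in AAT (log2 2.20, SE 0.46).

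The remaining higher genes were Ly86, Coro1a and Ms4a4d. Ly86, also called MD-1, a partner of the toll-like receptor relative RP105 on B cells and macrophages, was 46.1 and 162.2 in NOR and 704 and 536 in AAT (log2 2.83, SE 0.56). Coro1a, an actin regulator of leukocytes, was 253 and 191 in NOR and 964 and 743 in AAT (log2 1.94, SE 0.40). Both genes were above NOR in every DIA and PM array, at 507 to 898 for Ly86 and 629 to 1510 for Coro1a. Ms4a4d was 351 and 276 in NOR and 1161 and 1377 in AAT (log2 2.02, SE 0.41).

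Of the 12 lower genes, Psat1, an enzyme of serine synthesis, was 4797 and 3417 in NOR and 1441 and 1195 in AAT (log2 -1.63, SE 0.31). It read 4462 and 5624 in DIA and 2115 to 2703 in PM, and its other probe set had a log2 difference of -1.43. Igf1, insulin-like growth factor 1, was 3935 and 3913 in NOR and 1249 and 1733 in AAT (log2 -1.42, SE 0.34). Its 4 probe sets were all lower, by log2 differences from -1.42 to -0.68. The brightest of them gave -0.68 (SE 0.38) and was not past the thresholds. Nrg4, an adipokine of the neuregulin family, was 1104 and 1291 in NOR and 482 and 462 in AAT (log2 -1.34, SE 0.34), and its second probe set was lower as well (-1.09, SE 0.34). Gnai1, an inhibitory G protein subunit that restrains cyclic AMP, was 1190 and 1195 in NOR and 476 and 312 in AAT by one probe set (log2 -1.63, SE 0.37), and its brightest probe set gave -0.59 (SE 0.43). All of these pairs were well apart, with AAT below NOR. Kiss1r, the kisspeptin receptor, was 646 and 483 in NOR and 196 and 138 in AAT (log2 -1.76, SE 0.44). Cyp2c39, a fatty acid and retinoid metabolising cytochrome, was 388 and 525 in NOR and 89.2 and 45.9 in AAT (log2 -2.82, SE 0.63). Mrps18a, a mitochondrial ribosomal protein, was 3040 and 2913 in NOR and 1181 and 1318 in AAT (log2 -1.25, SE 0.30). The remaining 5 were Gpaa1, Ube4a, Wfdc21, Pmel and Itgb1bp1, with log2 differences from -2.19 (Pmel) to -1.16 (Itgb1bp1). Another probe set of Gpaa1 had a log2 difference of 0.96 (SE 0.87) and another of Ube4a 1.89 (SE 1.10).

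**Figure D3:**
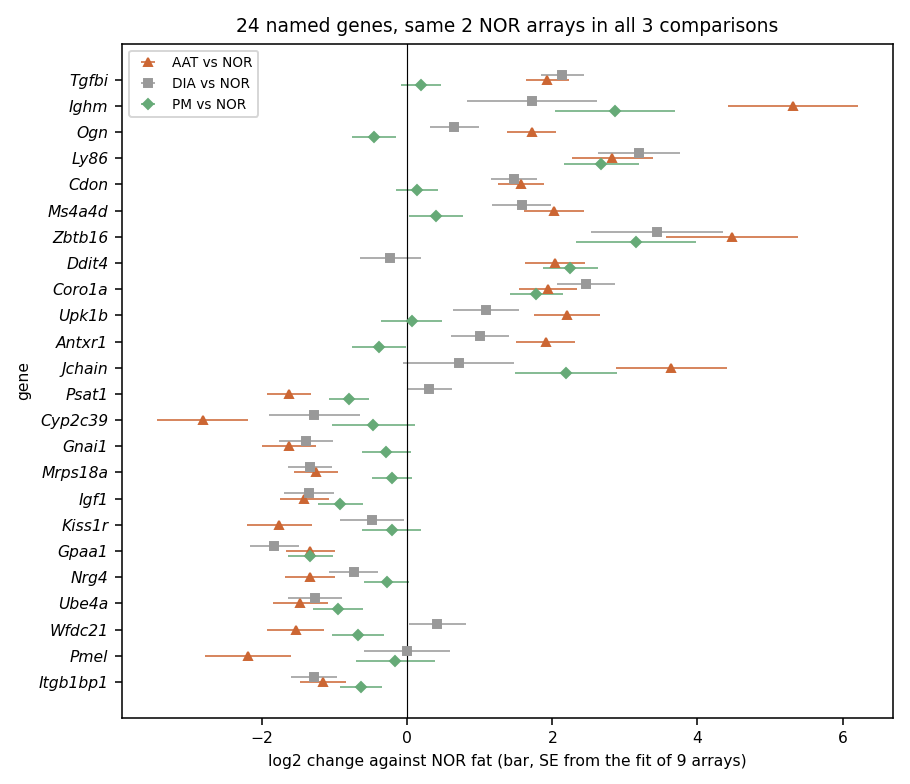
Log2 difference from NOR fat for the 24 genes named by rank in AAT, DIA and PM fat, with SE bars from the fit of 9 arrays. All 3 comparisons use the same 2 NOR arrays, the AAT values were those ranked to choose the genes, and the plot shows each comparison's own value side by side.

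Insulin turns on fatty acid synthesis and turns off gluconeogenic and fasting genes. Of 25 measured fatty acid and triglyceride synthesis genes none was past the thresholds in either direction (2.42% of all genes higher, 2.17% lower), and the median was -0.32, while the DIA arrays had 9 higher and none lower against the same NOR arrays (3.24% of all genes higher, 3.62% lower) and a median of 1.15. Acly, which supplies acetyl-CoA for lipid synthesis, was 4414 and 3152 in NOR and 4222 and 3242 in AAT, and 13867 and 17252 in DIA. Its AAT and NOR arrays overlapped fully (log2 -0.01, SE 0.53). Fasn, fatty acid synthase, was 31130 and 6093 in NOR and 4596 and 5691 in AAT (log2 -1.43, SE 1.24), the 2 NOR arrays being further apart than the group means. Acly and Fasn were named after their values were seen. Lpin1, a phosphatidate phosphatase, was 4548 and 3822 in NOR and 9274 and 5118 in AAT (log2 0.72, SE 0.37), and Scd2, a desaturase, was 519 and 614 in NOR, 941 and 1285 in AAT and 1530 and 4864 in DIA (log2 AAT against NOR 0.96, SE 0.50). When the actin ratio was a covariate, 8 members were lower with a median of -0.96. Without AAT 1 there were 3 lower, without NOR 2 there were 2 lower, and without AAT 2 there was 1 higher with a median of 0.14.

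The study listed genes of fat that diabetes moved and both treatments moved back, and its table shows the top part of a longer list. That table was chosen on these samples, so neither its direction nor its distance from NOR in DIA and AAT is independent evidence. Of 27 such genes measured here, none was past the thresholds between AAT and NOR, the median was -0.03, and both AAT arrays were above both NOR arrays in 4 and below in 3, where all genes gave 13.9% and 17.7%. A total of 25 lay within 2-fold of NOR in AAT, and 7 did in DIA, where 8 were past the thresholds higher and 9 lower. Other lists also lay within 2-fold in AAT, with 33 of 33 oxidative phosphorylation and 28 of 29 insulin signalling genes. In the smooth muscle list 3 of 15 did. The share over all genes was not counted. The median absolute log2 difference between the AAT and NOR means was 0.52 over all transcripts, so most transcripts lay within 2-fold too. Lying within 2-fold is therefore not particular to the listed genes. Pck1, the rate-limiting enzyme of gluconeogenesis and glyceroneogenesis, was 18205 and 24811 in NOR and 19920 and 27500 in AAT, and 5102 and 14139 in DIA. Egr1, an immediate early factor, was 7993 and 8115 in NOR, 11184 and 5425 in AAT and 640 and 1541 in DIA. Insig1, which holds SREBP in the endoplasmic reticulum, was 1148 and 1093 in NOR, 1144 and 800 in AAT and 5390 and 8102 in DIA. In all 3 genes the AAT arrays lay among or beside the NOR arrays, with log2 differences of 0.14 (SE 0.52), -0.05 (SE 0.56) and -0.23 (SE 0.62). Ppbp, a platelet chemokine, was 2237 and 1362 in NOR, 666 and 573 in AAT and 173 and 31.0 in DIA, and was below NOR on both AAT arrays (log2 -1.50, SE 0.71). Mrc2, a collagen uptake receptor, lay above NOR on both AAT arrays (log2 1.78, SE 0.98). Pdk4, which spares glucose in fasting, was 4986 and 4492 in NOR and 10568 and 7964 in AAT, above NOR, and 1828 and 1732 in DIA, below it (AAT against NOR log2 0.95, SE 0.40). Camkk2 was above NOR in both AAT and DIA (AAT log2 0.97, SE 0.44). Fitted with the actin ratio as covariate, the AAT log2 difference was 0.01 for Pdk4, 0.04 for Camkk2, -0.59 for Ppbp and 1.41 for Mrc2. With SEs of this size a gene near NOR may still differ from it by 2-fold. With the actin ratio as covariate 5 of the 27 were lower with a median of -0.43, without NOR 2 there were 3 higher, and without AAT 2 there were 2 higher and 1 lower.

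**Figure D4:**
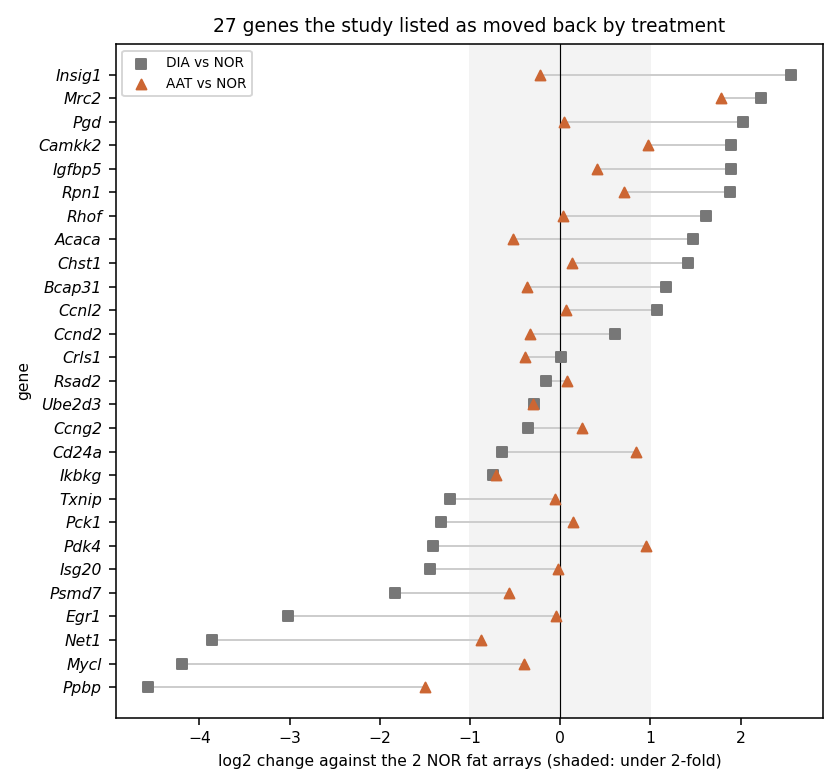
Log2 difference from NOR fat of the 27 measured genes that the study listed as moved back by treatment, with squares for DIA, triangles for AAT and shading for differences under 2-fold. In AAT 25 triangles fall in the shaded band, and Ppbp and Mrc2 lie outside it. Most of all measured transcripts also lay within 2-fold of NOR in AAT.

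Of 18 adipocyte identity genes none was past the thresholds and 12 overlapped between groups, with a median of -0.53. In 6 both AAT arrays were below both NOR arrays (17.7% of all genes), and in 0 both were above (13.9%). With the actin ratio as covariate 9 were lower with a median of -1.45, and without AAT 1 there were 2 lower. Adipoq, which encodes adiponectin, was 41908 and 48729 in NOR and 31858 and 15690 in AAT (log2 -1.02, SE 0.61), and Lpl, lipoprotein lipase, was 69009 and 74330 in NOR and 51103 and 27132 in AAT (log2 -0.94, SE 0.58). AAT 2 was the lower of the AAT pair in both. The list level was 0.01 and 0.36 in NOR and 0.14 and -0.87 in AAT, so the groups overlapped. Of 21 fatty acid oxidation genes none was past the thresholds, and in 13 both AAT arrays were below both NOR arrays (17.7% of all genes), with a median of -0.46, and 4 were lower without AAT 2. Etfa, which passes electrons from acyl-CoA dehydrogenases, was 8919 and 7124 in NOR and 3783 and 6352 in AAT (log2 -0.70, SE 0.37), and 2489 and 2251 in DIA. Of 33 oxidative phosphorylation genes none was past the thresholds and 15 had both AAT arrays below both NOR arrays, with a median of -0.26, which median centring of the arrays brought to -0.08. There were 2 of these lower with the actin ratio as covariate and 2 without AAT 2. Cox8a, a subunit of cytochrome oxidase, was 9091 and 10382 in NOR and 4643 and 7947 in AAT (log2 -0.68, SE 0.35). In the brown and beige adipocyte list 1 of 15 genes was past the thresholds, Cox8b, which was 1883 and 970 in NOR and 619 and 270 in AAT (log2 -1.72, SE 0.65).

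The proteases AAT inhibits and the mouse counterparts of AAT were read from a list of their own. Of 19 measured genes of the list of AAT-sensitive proteases and neutrophil granule proteins 1 was past the thresholds, Serpina1b, a mouse AAT gene, at 45.6 and 270.6 in NOR and 1328 and 456 in AAT (log2 2.81, SE 0.98). It was 628 and 1214 in DIA, and its probe set can also bind transcripts of near-identical Serpina1 copies. Elane, neutrophil elastase, read 59.6 and 73.8 in NOR and 23.9 and 88.1 in AAT, low and overlapping, and was named after its value was seen. The list median was -0.11, and that of the neutrophil list, none of whose 12 genes was past the thresholds, was -0.18.

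**Figure D5:**
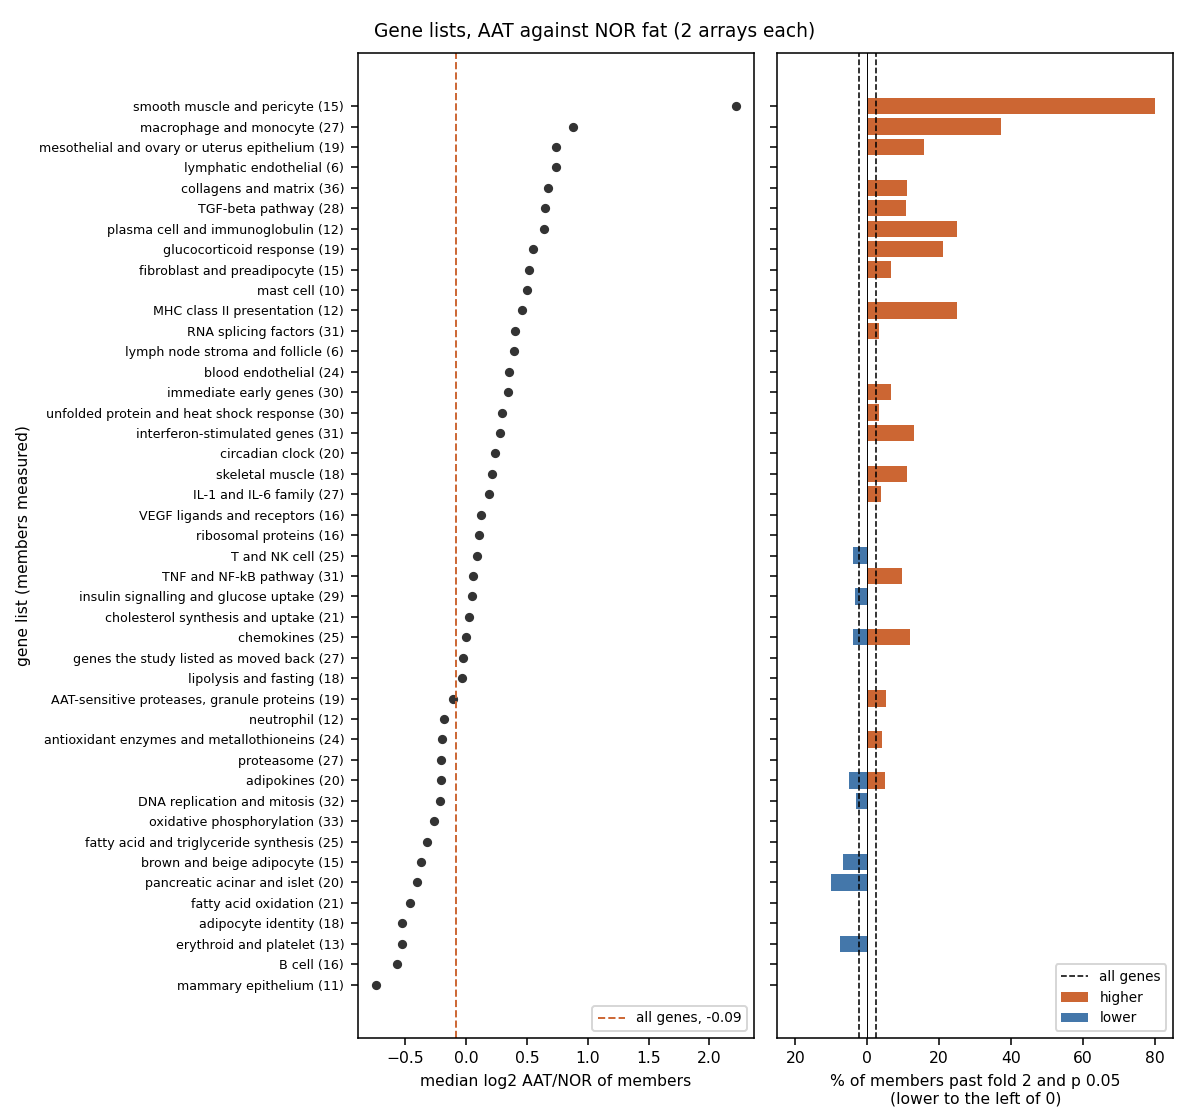
Median log2 difference between AAT and NOR fat of all 44 gene lists (left) and the percent of members past the thresholds higher or lower (right), with dashed lines for all genes. The smooth muscle list is alone at the top with a median of 2.22 and 80% of members higher, and macrophage genes follow with 0.88 and 37%.

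Over all 44 lists 857 genes were measured, each counted once, of which 70 were past the thresholds (4.59% of all genes were). Lists with members past them in the higher direction alone numbered 18, in the lower direction alone 6, in both 2, and in neither 18. AAT fat was also tested against PM fat, which asks whether AAT and PM left fat in different states. No transcript was called by limma (smallest adjusted p 0.110), with 2500 at an unadjusted p under 0.05 and 2198 past the same fold and p limits. Whether AAT against NOR differed between fat and PLNs was tested as an interaction over all 19 arrays. By limma 1 of 45037 transcripts was called (0.00222%), with 4596 at an unadjusted p under 0.05, and the median difference over all transcripts was 0.57, since the median AAT against NOR difference was -0.13 in fat and -0.72 in PLNs. For the smooth muscle, matrix and macrophage genes described here no member was called in that interaction.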

How the data were processed

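Per the labels, total RNA was Trizol-extracted and hybridised to Affymetrix Mouse 430 2.0 arrays. The deposited intensity values were, per the labels, made by the authors with MAS5 and had a 2% trimmed mean of 500 on every array, whereas RMA and rank product are the procedures in the study's methods. Amplification text in the labels is garbled. Values were floored at 1 and put on the log2 scale, and 64 control probe sets were left out, leaving 45037 transcripts. Differences, written as log2, were fitted with limma 3.58.1 (lmFit, eBayes with trend, R 4.3.3, with the data.table package, 1.17.8) over all 9 fat arrays with shared variance, with Benjamini-Hochberg adjustment over all transcripts. Plots used Python 3.11.15 and matplotlib 3.10.9. Every comparison with NOR shares the same 2 NOR arrays. The number of arrays limits the precision (5 residual degrees of freedom).

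Probe sets were named from the platform annotation: 34945 named 1 gene, 932 several and 9160 none. Genes were counted by the probe set with the highest mean. Named genes were the 12 higher and 12 lower with the smallest p past the thresholds, without overlap and with a mean at or above the median, because none was called. For each of 44 gene lists naming was limited to 4 members by smallest p plus 2 by highest signal, with others said to be named after their values were seen. Members, lists and rules were chosen with earlier results of these data known. Deviations of same-numbered NOR and AAT arrays correlated at -0.26, and numbers were not taken as pairs. With 2 arrays per group the deviations are mirror images, so crossed pairs correlate equally strongly with the opposite sign. The value therefore cannot show whether arrays were paired. Alternatives covered normalization, floors, filters, the variance prior, the actin ratio, rank product, replicate blocks and left-out arrays. The crossed block and the left-out arrays for AAT against PM and for the interaction were chosen after seeing the data. Fitting was tested on simulated data.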

Additional observations from a re-analysis of the deposited data

Results flagged for a closer look

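1 transcript, probe set 1440037_at, which has no gene name here, differed between fat and PLNs in its AAT against NOR difference, by an interaction term in limma over 19 arrays. The difference was 4.02 on the log2 scale (SE 0.605, adjusted p 0.0371), made of 1.84 in fat and -2.18 in PLNs, against a median of 0.57 over all transcripts. The adjusted p was 0.119 with the replicate block, 0.125 with quantile normalization and 0.0785 without trend, and the call was lost on leaving out 10 of the 19 arrays in turn, with adjusted p up to 0.273 (without FAT NOR 1). In fat it read 507 and 417 in NOR, 1911 and 1410 in AAT, 2003 and 1593 in DIA and 289 to 327 in PM. In PLNs it read 887 to 1336 in NOR, 753 and 426 in DIA and 168 to 284 in AAT. Both AAT fat arrays were above both NOR fat arrays, and all 4 AAT PLN arrays below all 4 NOR PLN arrays.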

How the results depend on the processing

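The count of called transcripts (0) became 5 with the 4 arrays alone, 20 with a floor at the 20th percentile and 16 with the actin ratio as covariate, and ran from 0 to 21 with 1 array left out (21 without NOR 2, 1 without AAT 1). By rank product, whose null did not allow for shared arrays, 8129 transcripts were past the limits. The 2053 transcripts past the thresholds by limma became 1078 and 654 with filters at the 40th and 60th percentile. They became 819 with 1 probe set per gene and 3649 with the actin ratio as covariate. With 1 array left out they ran from 1270 (without NOR 1) to 3956 (without NOR 2). Median centring changed the split from 1005 higher and 1048 lower to 1349 and 835. With the replicate block 1559 were past the thresholds and 0 called, and with the crossed pairing 1572 and 0. AAT against PM gave 0 to 1 called with 1 array left out (1 without AAT 1). The interaction, with 1 called, gave 0 with the replicate block, with quantile normalization and with eBayes without trend, and 0 to 40 with 1 array left out (40 without FAT NOR 2). Of the named genes' values 473 kept their side of the threshold and 5 fell below it, and of the list medians 307 moved by less than the replicate spread and 33 by more. The cause was not tested.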

Other observations

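Other gene groups were read against 2.42% of genes higher and 2.17% lower. C1qtnf7, a secreted relative of adiponectin, was 25.5 and 13.4 in NOR and 283 and 533 in AAT (log2 4.39, SE 0.82). The NOR values were near the bottom of the array range, and the log2 difference ran from 2.80 to 5.14 over 18 settings. It and Nrg4 were the members of 20 adipokine genes past the thresholds (list median -0.21). Lep, leptin, named after its value was seen, was 255 and 1299 in NOR and 2252 and 63.1 in AAT, a spread within each group that exceeded the difference. Pik3cb, a catalytic subunit of PI3 kinase, was lower (log2 -1.11, SE 0.45), the only one of 29 insulin signalling genes past the thresholds (median 0.05).

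Several stress and early response lists had 1 or 2 members past the thresholds. Fosl2, an AP-1 factor, was 534 and 1492 in NOR and 2791 and 2620 in AAT (log2 1.60, SE 0.44), and Maff (1.56, SE 0.66) was the other of 30 immediate early genes (median 0.34). Hspa1b, an inducible heat shock protein, was 928 and 2008 in NOR and 3758 and 3571 in AAT, 1 of 30 unfolded protein and heat shock genes (median 0.29). Irak3, a brake on toll-like receptor signalling, was 1 of 27 IL-1 and IL-6 family genes (log2 1.86, median 0.18). Nqo1 was 1 of 24 antioxidant genes (log2 2.42, median -0.20), and Hnrnph1 1 of 31 splicing factor genes (log2 1.03, median 0.41).

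Markers of neighbouring tissues differed in a few genes. Myh1, a skeletal muscle myosin, was 73.2 and 65.2 in NOR and 2659 and 140 in AAT, so that AAT 1 stood far above the rest. It and Atp2a1 were the 2 of 18 skeletal muscle genes past the thresholds (median 0.21). Of the 18, 10 were higher and 8 lower in AAT by any amount, with Acta1 at log2 -1.36 and Ttn at -1.37. The pancreatic enzymes Cela3b (818 and 802 in NOR, 211 and 327 in AAT) and Cel were lower, 2 of 20 genes (median -0.40). Epb42 was 1 of 13 erythroid and platelet genes and lower (median -0.53), and Birc5 1 of 32 DNA replication genes and lower (median -0.21).

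No member was past the thresholds among 21 cholesterol genes (median 0.02), 18 lipolysis and fasting genes (-0.04), 20 clock genes (0.24), 16 ribosomal protein genes (0.11), 27 proteasome genes (-0.21), 16 VEGF genes (0.12), 6 lymphatic endothelial genes (0.74), 10 mast cell genes (0.50), 11 mammary epithelium genes (-0.74) and 6 lymph node stroma genes (0.39). None of 24 blood endothelial genes was past them either (median 0.35), but 19 were lower with the actin ratio as covariate (median -2.59) and 6 higher without NOR 2 (1.83), and the median was -1.08 without NOR 1 and -0.62 without AAT 1. The median of the brown and beige adipocyte list was -0.37.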
